A study of Mus musculus with 12 samples.

Results

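The 10 genes described here carry the first steps of innate immune sensing and leukocyte recruitment: the Toll-like receptors Tlr2 and Tlr4, the co-receptor Cd14, the adaptor Myd88, the inflammasome genes Nlrp3 and Casp1, the cytokine Il1b and its antagonist Il1rn, and the adhesion molecules Icam1 and Vcam1. They were chosen by name, and all 10 were found among the 23284 genes of the deposited table. Liver RNA was sequenced from mice lacking apolipoprotein A-I and apolipoprotein E (Apoa1-/- Apoe-/-, called DKO) and from mice with the same double knockout that also carried human APOA1 (DKO/hA1), after 22 weeks on chow or on Western diet. There were 4 libraries of DKO on chow, 3 of DKO on Western diet, 2 of DKO/hA1 on chow and 3 of DKO/hA1 on Western diet, 12 in all. Every group was labelled as a knockout of both mouse apolipoproteins, and there was no wild-type group. The promoter of the transgene, the strain, the sex and the age of the mice are not given in the sources used here. The labels number the samples and do not say whether each came from a mouse of its own, so the p-values measure the spread between these samples.

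Toll-like receptors recognise microbial molecules and signal through adaptors such as MyD88 to NF-kB, which raises transcription of cytokines, adhesion molecules and the inflammasome's own parts. The NLRP3 inflammasome activates caspase-1, which cleaves the precursor of interleukin-1 beta, and the interleukin-1 receptor antagonist competes with that cytokine for its receptor. In liver these genes are known mainly from Kupffer cells and other myeloid cells, with the adhesion molecules also on sinusoidal endothelium.

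Values are FPKM, fragments scaled by transcript length and by the mapped fragments of the library, so levels can be set side by side between genes. A difference is a log2 difference of scaled FPKM + 1 from a linear model of the 4 groups in limma, given ± its standard error, and the added 1 makes it understate the change of genes near or below 1 FPKM. A gene was called when its Benjamini-Hochberg adjusted p over the 11546 genes tested was below 0.05. Genes with at least 1 FPKM in at least 2 libraries were tested, which kept 9 of the 10. Nlrp3 reached that level in 1 library and was not tested. Tlr4 passed with 1 chow library and 5 Western diet libraries at that level, and Tlr2 and Il1rn each with 4 chow and all 6 Western diet libraries.

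The libraries had total FPKM between 379689 and 578927 and an estimated relative depth between 0.521 and 1.29 of DKO chow replicate 1, and their log2 levels correlated at 0.947 to 0.981 within groups and 0.918 to 0.986 between groups, across genes. Apoa1 ranged from 30.4 to 77.4 FPKM over the 7 DKO libraries and from 122 to 240 FPKM over the 5 DKO/hA1 libraries. Apoe lay between 12.9 and 89.8 FPKM over the 12 libraries, so reads of both genes were present in libraries labelled as knockouts; whether they came from exons outside the deleted parts was not tested. Hepatocyte markers were present in every library, at a summed level of 4458 FPKM in DKO/hA1 Western diet replicate 3 and 7174 to 9699 FPKM in the other libraries. Depth in reads is not known here, so no counting interval is given.

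The 10 genes covered a wide range of levels. The median over the 12 libraries was 10.3 FPKM for Icam1, 9.93 for Myd88 and 8.10 for Vcam1, followed by 4.68 for Cd14, 2.80 for Casp1, 2.34 for Il1rn, 2.17 for Tlr2, 1.97 for Il1b, 1.07 for Tlr4 and 0.481 for Nlrp3. The ranges of neighbours in this order overlapped in every case. Myd88 was the steadiest, with its highest library at 1.79 times its lowest. Cd14 spread 75.4-fold and Il1rn 25.4-fold between the lowest and the highest library.

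**Figure D1:**
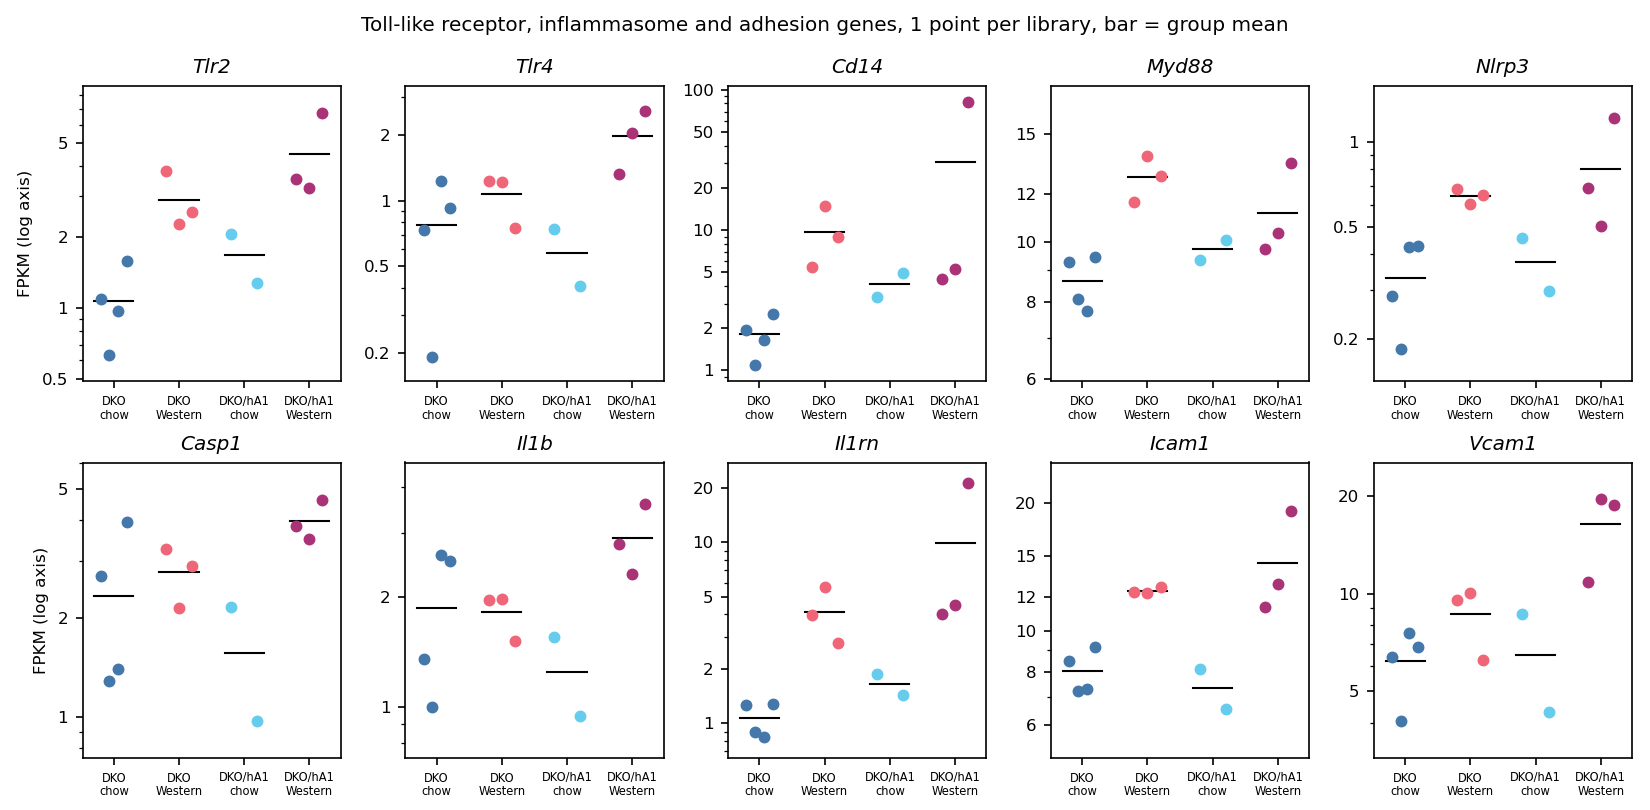
FPKM on a log axis for each of the 10 genes, with 1 point per library, the 4 genotype and diet groups on the horizontal axis and a bar at the group mean. Tlr2, Nlrp3, Il1rn and Icam1 were higher in each of the 6 Western diet libraries than in any of the 6 chow libraries, and a single DKO/hA1 Western diet library stands far above the others for Cd14 (81.9 FPKM) and Il1rn (21.3 FPKM).

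Western diet went with higher levels of Icam1, Tlr2 and Il1rn when diet was averaged over the genotypes. These 3 of the 9 genes tested were called higher and none lower, where 463 of all 11546 genes tested (4.01%) were called, 324 (2.81%) higher and 139 (1.2%) lower. The estimate was above 0 for all 9 and for 48.0% of all genes tested, with a median of 0.69 against -0.0089 over all genes tested. The unadjusted p was below 0.05 for each of the 9, as for 19.6% of all genes tested. Without any test, 4 of the 10 genes (Tlr2, Nlrp3, Il1rn and Icam1) had all Western diet libraries above all chow libraries, as did 2.51% of the genes tested. Nlrp3 is not among the genes tested, so this share and those without overlap given below do not cover it. With the libraries set to equal totals instead, the median over all genes moved to -0.137 and 181 genes were called higher and 240 lower, and Icam1, Tlr2 and Il1rn were still the 3 called. All 3 calls were lost without 1 library, DKO/hA1 chow replicate 2, as described further on.

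Within a genotype no member of the group was called. In DKO, 6 of the 10 genes (Tlr2, Cd14, Myd88, Nlrp3, Il1rn and Icam1) were higher without overlap on Western diet, where 10.5% of the genes tested were. limma called 0 of the 9 tested, against 13 of all genes (0.113%), with an unadjusted p below 0.05 for 5 of the 9 and for 11.8% of all genes tested. In DKO/hA1, 8 of the 10 (all but Cd14 and Myd88) were higher without overlap, where 15.6% of the genes tested were. There limma called 0 of the 9 against 151 of all genes (1.31%), with an unadjusted p below 0.05 for 7 of the 9 and for 13.5% of all genes. The median difference of the 9 was 0.45 in DKO and 0.99 in DKO/hA1, against -0.0062 and -0.0084 over all genes. The interaction, which tests the difference between those diet effects, called 0 of the 9 (2 of all genes, 0.0173%), with an unadjusted p below 0.05 for 1 of the 9 and for 4.93% of all genes.

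**Figure D2:**
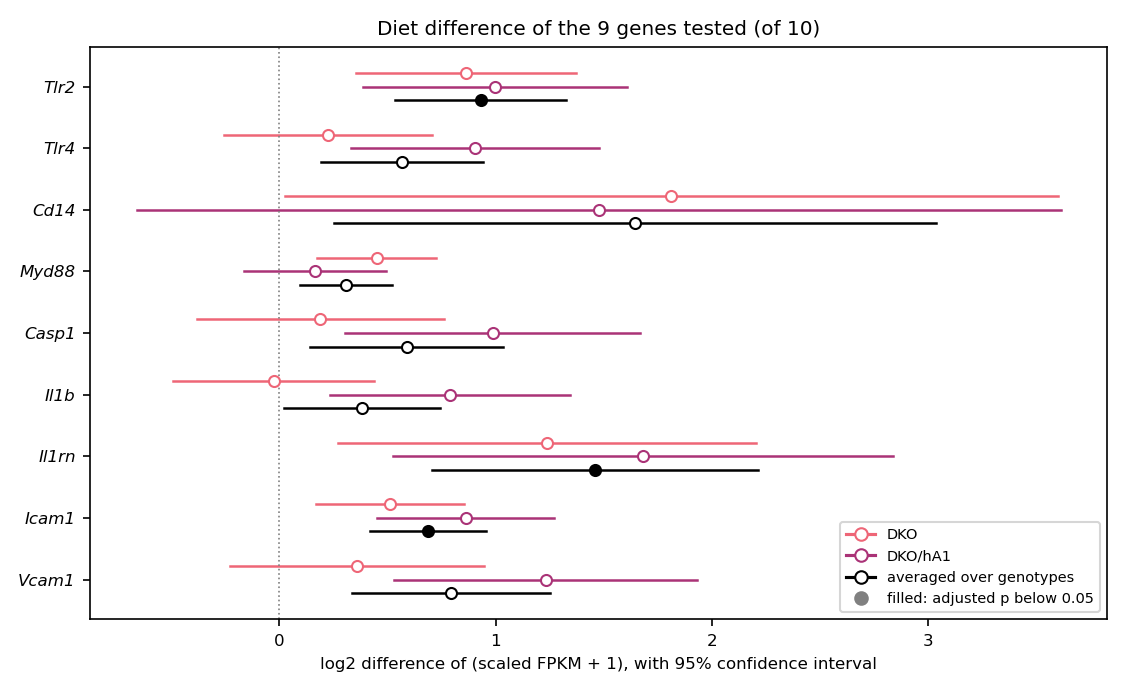
Log2 difference of scaled FPKM + 1 between Western diet and chow for the 9 genes tested, in DKO, in DKO/hA1 and averaged over genotypes; lines are 95% confidence intervals and filled points have an adjusted p below 0.05. The averaged estimates run from 0.31 for Myd88 to 1.64 for Cd14, and only Tlr2, Il1rn and Icam1 are filled.

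The promoters of the 3 called genes are shown because the pathway ends in NF-kB, of which Icam1 and Tlr2 are known targets. RefSeq (GRCm38.p6) gave windows for 7 of the 10 genes, 10 windows in all; Tlr4, Cd14 and Vcam1 were without one. The 250 bases before the annotated start were searched on both strands for the NF-kB consensus, for GGAANTTCC (a shorter palindromic form that can overlap it), TTCCNGGAA (the STAT letters), TGANTCA (the AP-1 letters) and TATAAA. Of 32851 windows of this length 3.9%, 0.813%, 0.913%, 6.75% and 12.4%, in that order, held a match. Capitals below mark matches to the first 4 motifs, and each sequence runs 5′ to 3′ towards the start on the strand of the gene. The Tlr2 window is chr3:83841609-83841858 (minus strand), the Icam1 window chr9:21015690-21015939 (plus strand) and the Il1rn window, the first of 3 for that gene, chr2:24336610-24336859 (plus strand).
Tlr2: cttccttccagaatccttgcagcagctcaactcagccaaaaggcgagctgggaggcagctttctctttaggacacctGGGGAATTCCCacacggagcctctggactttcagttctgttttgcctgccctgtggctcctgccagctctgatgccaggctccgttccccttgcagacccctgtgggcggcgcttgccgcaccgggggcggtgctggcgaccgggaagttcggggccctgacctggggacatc
Icam1: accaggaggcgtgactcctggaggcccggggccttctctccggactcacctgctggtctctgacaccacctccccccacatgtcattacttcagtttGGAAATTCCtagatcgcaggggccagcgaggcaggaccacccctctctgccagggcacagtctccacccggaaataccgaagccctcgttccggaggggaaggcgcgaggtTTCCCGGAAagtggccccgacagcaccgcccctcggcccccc
Il1rn: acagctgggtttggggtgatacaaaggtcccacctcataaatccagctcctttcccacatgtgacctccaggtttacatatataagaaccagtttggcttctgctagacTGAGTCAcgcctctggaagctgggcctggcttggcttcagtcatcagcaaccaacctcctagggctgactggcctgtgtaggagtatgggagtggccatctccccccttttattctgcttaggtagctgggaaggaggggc

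The Tlr2 window held overlapping matches to the NF-kB consensus, from base -173 to -163 before the RefSeq start. The GENCODE start of Tlr2, chr3:83841767, lies inside this window, so positions counted from it differ. The Icam1 window held GGAAATTCC from -153 to -145 and TTCCCGGAA from -42 to -34, and no match to the full consensus. The Il1rn window held TGAGTCA from -141 to -135 and no NF-kB match, and its other windows held no match to any of the 5 motifs. Among genes that were not called, an Nlrp3 window held 1 match to the NF-kB consensus and those of Il1b and Myd88 held TATAAA only. A match describes the letters of the window, not a bound site.

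Tlr2 encodes the receptor for bacterial lipoproteins, which pairs with TLR1 or TLR6 (GRCm38 chr3:83836272-83841767, minus strand). It stood at 1.09, 0.636, 0.969 and 1.58 FPKM in DKO chow replicates 1 to 4 and at 3.81, 2.27 and 2.56 FPKM in DKO Western diet replicates 1 to 3. DKO/hA1 libraries read 2.07 and 1.28 FPKM on chow and 3.55, 3.22 and 6.73 FPKM on Western diet. Every Western diet library was above every chow library, and the gap was narrow, from 2.07 to 2.27 FPKM. The diet difference averaged over genotypes was 0.93 ± 0.18 (limma adjusted p = 0.0181), and it was 0.86 ± 0.23 in DKO (adjusted p = 0.211) and 1.00 ± 0.28 in DKO/hA1 (adjusted p = 0.108).

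Tlr4 encodes the receptor for lipopolysaccharide (chr4:66827584-66930284, plus strand). DKO stood at 0.734, 0.193, 1.23 and 0.924 FPKM on chow and at 1.24, 1.22 and 0.754 FPKM on Western diet. DKO/hA1 had 0.745 and 0.408 FPKM on chow and 1.32, 2.04 and 2.59 FPKM on Western diet. The diets overlapped in DKO and did not in DKO/hA1, whose Western diet libraries held the highest 3 values of the 12. The averaged difference was 0.57 ± 0.17 (limma adjusted p = 0.0939) and did not pass the test. By genotype it was 0.23 ± 0.22 (adjusted p = 0.734) in DKO and 0.90 ± 0.26 (adjusted p = 0.123) in DKO/hA1.

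Cd14 encodes the co-receptor that passes lipopolysaccharide to TLR4 (chr18:36725067-36726798, minus strand). DKO libraries read 1.96, 1.09, 1.65 and 2.53 FPKM on chow and 5.43, 14.9 and 8.89 FPKM on Western diet. Levels in DKO/hA1 were 3.35 and 4.92 FPKM on chow and 4.45, 5.29 and 81.9 FPKM on Western diet. DKO Western diet lay wholly above DKO chow, while in DKO/hA1 replicate 3 on Western diet stood alone and the other 2 Western diet libraries were near the chow libraries. The averaged difference of 1.64 ± 0.63 was the largest of the 9 and was not called (limma adjusted p = 0.177). In DKO it was 1.81 ± 0.80 (adjusted p = 0.416). Without DKO/hA1 Western diet replicate 3, the averaged difference was 1.00 and was called (adjusted p = 0.0472). That in DKO was then called at the same 1.81 (adjusted p = 0.0275). The DKO libraries were the same in both fits, and the estimate of the spread, which the 4 groups share, was not. This call is therefore no further evidence from DKO.

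Myd88 encodes the adaptor shared by most Toll-like receptors and by the interleukin-1 receptor (chr9:119335934-119341411, minus strand). DKO had 9.30, 8.09, 7.72 and 9.46 FPKM on chow and 11.7, 13.8 and 12.8 FPKM on Western diet. The DKO/hA1 libraries held 9.38 and 10.1 FPKM on chow and 9.77, 10.3 and 13.4 FPKM on Western diet. DKO was separated by diet and DKO/hA1 was not. The averaged difference was the smallest of the 9, 0.31 ± 0.097 (limma adjusted p = 0.106), with 0.45 ± 0.12 in DKO (adjusted p = 0.223) and 0.16 ± 0.15 in DKO/hA1 (adjusted p = 0.710).

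Nlrp3 encodes the sensor of the inflammasome (chr11:59541568-59566956, plus strand). It was the lowest of the 10 genes, at 0.284, 0.184, 0.423 and 0.429 FPKM in DKO chow and at 0.683, 0.602 and 0.651 FPKM in DKO Western diet. Its DKO/hA1 levels were 0.457 and 0.296 FPKM on chow and 0.687, 0.506 and 1.22 FPKM on Western diet. All Western diet libraries were above all chow libraries, with 0.457 and 0.506 FPKM on the sides of the gap. When the level filter was dropped, the averaged difference was 0.33 ± 0.099 and was not called (limma adjusted p = 0.126).

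Casp1 encodes the protease that the inflammasome activates (chr9:5298517-5307265, plus strand). DKO libraries gave 2.70, 1.29, 1.40 and 3.96 FPKM on chow and 3.26, 2.15 and 2.89 FPKM on Western diet. Among DKO/hA1 libraries it read 2.17 and 0.972 FPKM on chow and 3.84, 3.50 and 4.62 FPKM on Western diet. The diets overlapped in DKO, where chow held both the lowest and the highest library, and did not overlap in DKO/hA1. The averaged difference was 0.59 ± 0.20 (limma adjusted p = 0.137), with 0.19 ± 0.26 in DKO (adjusted p = 0.824) and 0.99 ± 0.31 in DKO/hA1 (adjusted p = 0.159). Without DKO chow replicate 4, the highest chow library, the averaged difference was 0.69 and was called (adjusted p = 0.0494).

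Il1b encodes interleukin-1 beta, the main product of the pathway (chr2:129364570-129371139, minus strand). Its DKO levels were 1.35, 1.00, 2.61 and 2.51 FPKM on chow and 1.97, 1.98 and 1.51 FPKM on Western diet. DKO/hA1 stood at 1.55 and 0.944 FPKM on chow and at 2.79, 2.31 and 3.59 FPKM on Western diet. The DKO Western diet libraries fell inside the range of DKO chow, and the DKO/hA1 groups did not overlap. The difference was -0.026 ± 0.21 in DKO (limma adjusted p = 0.977) and 0.79 ± 0.25 in DKO/hA1 (adjusted p = 0.166). The interaction was 0.82 ± 0.33, with a 95% confidence interval of 0.093 to 1.54 and an unadjusted limma p of 0.0302, and it did not pass adjustment (adjusted p = 0.963).

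Il1rn encodes the interleukin-1 receptor antagonist and lies on the same chromosome as Il1b (chr2:24336853-24351494, plus strand). The DKO libraries held 1.27, 0.892, 0.838 and 1.28 FPKM on chow and 3.98, 5.68 and 2.80 FPKM on Western diet. Carriers of human APOA1 had 1.88 and 1.43 FPKM on chow and 4.05, 4.50 and 21.3 FPKM on Western diet. Each Western diet library was above each chow library, and DKO/hA1 replicate 3 stood far above the rest. The averaged difference was 1.46 ± 0.34 and was called (limma adjusted p = 0.0414), and this call was held in 11 of 22 settings. In DKO it was 1.24 ± 0.44 (adjusted p = 0.321) and, without DKO/hA1 Western diet replicate 3, 1.24 with an adjusted p of 0.0184. The DKO libraries were the same in both fits, and the estimate of the spread, which the 4 groups share, was not. In DKO/hA1 the difference was 1.68 ± 0.52 (adjusted p = 0.158).

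The antagonist and the cytokine can be set side by side. Group means of Il1rn and Il1b were 1.07 ± 0.24 and 1.87 ± 0.81 FPKM (SD, n = 4) in DKO chow and 4.15 ± 1.45 and 1.82 ± 0.27 FPKM (SD, n = 3) in DKO Western diet. In DKO/hA1 they were 1.66 ± 0.32 and 1.25 ± 0.43 FPKM (SD, n = 2) on chow and 9.94 ± 9.81 and 2.90 ± 0.65 FPKM (SD, n = 3) on Western diet. Il1rn was thus below Il1b in mean on DKO chow and above it in the other 3 groups; the ratio of the genes was not tested.

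Icam1 encodes the endothelial and leukocyte ligand of the beta-2 integrins (chr9:21015985-21028817, plus strand). Levels in DKO were 8.51, 7.22, 7.32 and 9.15 FPKM on chow and 12.3, 12.3 and 12.7 FPKM on Western diet. In DKO/hA1 it was at 8.13 and 6.54 FPKM on chow and at 11.4, 12.9 and 19.1 FPKM on Western diet. The diets were apart in both genotypes, with 9.15 FPKM the highest chow value and 11.4 FPKM the lowest Western diet value. The averaged difference was 0.69 ± 0.12, with the lowest adjusted p of the 9 (limma adjusted p = 0.0123). It was 0.51 ± 0.16 in DKO (adjusted p = 0.261) and 0.86 ± 0.19 in DKO/hA1, where it fell just short of the threshold (adjusted p = 0.0503). Icam1 shares 511 of its 2535 exon bases with the antisense gene Gm47079, which has no row of its own, and whether reads were counted by strand is not given in the sources used here, so their reads cannot be told apart.

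Vcam1 encodes the ligand of the alpha-4 integrins (chr3:116109949-116129688, minus strand). Among DKO libraries it read 6.36, 4.05, 7.56 and 6.86 FPKM on chow and 9.57, 10.1 and 6.26 FPKM on Western diet. In DKO/hA1 it was at 8.63 and 4.32 FPKM on chow and at 10.9, 19.5 and 18.7 FPKM on Western diet. The diets overlapped in DKO, and all 3 DKO/hA1 Western diet libraries were above the other 9. The averaged difference of 0.79 ± 0.21 was not called (limma adjusted p = 0.0611), nor was that of 1.23 ± 0.32 in DKO/hA1 (adjusted p = 0.0912). In DKO it was 0.36 ± 0.27 (adjusted p = 0.644). The averaged difference was called without DKO/hA1 chow replicate 1 (1.00, adjusted p = 0.0439) and without DKO/hA1 Western diet replicate 1 (0.93, adjusted p = 0.0252), and without the latter that in DKO/hA1 was called too (1.5, adjusted p = 0.0448). The antisense gene Gm43109 shares 61 of the 4983 exon bases of Vcam1.

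None of the 9 genes passed the threshold for genotype. On chow, limma called 0 of the 9 (9 of all genes, 0.0779%), with an unadjusted p below 0.05 for 0 of the 9 and for 7.45% of all genes. On Western diet it called 0 of the 9 and 0 of all 11546 genes (0.0%), with an unadjusted p below 0.05 for 2 of the 9 and for 675 of all genes (5.85%). Vcam1 was 0.87 ± 0.29 higher in DKO/hA1 (limma adjusted p = 0.746) and Tlr4 was 0.53 ± 0.23 higher (limma adjusted p = 0.849), and neither passed. Without a test, Tlr4, Casp1, Il1b and Vcam1 were higher without overlap in DKO/hA1 than in DKO on Western diet, 4 of 10 genes where 4.38% of the genes tested were, and 0 were lower without overlap, where 5.16% of the genes tested were. On chow, Cd14 and Il1rn were higher without overlap in DKO/hA1, 2 of 10 where 12.3% of the genes tested were. Averaged over diets, 0 of the 9 were called (13 of all genes, 0.113%), and the unadjusted p was below 0.05 for 1 of the 9 and for 8.05% of all genes. The 1 was Tlr2, at 0.43 ± 0.18 (limma adjusted p = 0.584).

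The interaction was above 0 for 7 of the 9 genes and for 50.8% of all genes tested, and below it for Cd14 (-0.34 ± 1.25) and Myd88 (-0.28 ± 0.19). The sign for Tlr2, Cd14 and Il1rn turned with some libraries left out. Vcam1 (0.87 ± 0.42), Il1b (0.82 ± 0.33), Casp1 (0.80 ± 0.41) and Tlr4 (0.68 ± 0.34) had the highest estimates. All had a limma adjusted p of 0.963, and the confidence interval included 0 for each of the 9 but Il1b, so a difference between the genotypes in their response to diet was not shown. Some cell type markers ran the same way and others the opposite way. The interaction was above 0 for 15 of 15 macrophage markers (median 1.2), 8 of 9 endothelial markers (median 0.70) and 9 of 9 stellate cell markers (median 0.38), and for 4 of 4 T and NK cell markers (median 0.65). It was above 0 for 0 of 10 neutrophil markers (median -1.2), 1 of 5 monocyte markers (median -0.28) and 0 of 2 B cell markers (median -0.42). For the acute phase genes it was above 0 in 1 of 14 (median -1.45). None of these genes was called in the interaction, and their part in the values of the 9 genes was not tested.

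A single library held most of the highest values. DKO/hA1 Western diet replicate 3 was the highest of the 12 for 8 of the 10 genes and among the top 3 for all 10; Myd88 was highest in DKO Western diet replicate 2 and Vcam1 in DKO/hA1 Western diet replicate 2. At the other end, DKO chow replicate 2 was lowest for 5 genes, DKO/hA1 chow replicate 2 for 3 and DKO chow replicate 3 for 2.

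Some macrophage markers were called higher on Western diet, while no marker of neutrophils, monocytes or endothelium was called. The estimates averaged over genotypes were still above 0 for 10 of 10 neutrophil markers (median 2.03) and 5 of 5 monocyte markers (median 0.93). The median level over the 12 libraries was 0.136 to 0.418 FPKM for Mmp8, Mpo, Ltf, Elane, Mmp9 and Camp. It was 0.240 FPKM for F13a1 and 0.768 FPKM for Chi3l3. Such genes passed the level filter through their higher libraries, so their signs do not add to the evidence on diet. The summed level of 15 macrophage and Kupffer cell markers, all found, was 326 to 756 FPKM in DKO chow and 1024 to 1354 FPKM in DKO Western diet. In DKO/hA1 it was 245 and 613 FPKM on chow and 1517 to 2325 FPKM on Western diet. Of these 15 markers 9 were called higher for diet averaged over genotypes, with a median difference of 1.35, where 2.81% of all genes tested were. In DKO/hA1 alone 7 were called and in DKO alone 0 (median 0.84), where 1.31% and 0.113% of all genes tested were called. Whether these marker calls held with 1 library left out was not examined. The lowest sum, 245 FPKM, was that of DKO/hA1 chow replicate 2, the library on which the diet calls of the 9 genes rested. No macrophage marker was at 0 in any library. In bulk tissue, more cells of a type and more RNA per cell cannot be told apart, and the part of these markers in the results for the 10 genes was not tested.

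Neutrophil markers, of which 10 of 11 were found, summed to 12.5 to 23.3 FPKM in DKO chow and to 98.6, 999.9 and 227 FPKM in DKO Western diet replicates 1 to 3. In DKO/hA1 they summed to 22.8 and 29.4 FPKM on chow and to 17.1, 75.0 and 906 FPKM on Western diet replicates 1 to 3. None of the 10 was called for diet, and Ngp, Camp, Ltf, Mmp8, Retnlg and Elane were at 0 in at least 1 library. The acute phase genes, all 14 found, summed to 10427 to 17197 FPKM in DKO chow and 32251 to 153904 FPKM in DKO Western diet. In DKO/hA1 they summed to 15770 and 20450 FPKM on chow and to 13718, 16081 and 132312 FPKM on Western diet replicates 1 to 3. Only replicate 3 of these was above both chow libraries. Lcn2, Orm2, Saa1, Saa2 and Saa3, 5 of these 14 genes, were called higher for diet averaged over genotypes, where 2.81% of all genes tested were. Whether these calls held with 1 library left out was not examined, and the part of acute phase genes in the results was not tested. With the 2 libraries highest in neutrophil markers left out, Icam1, Tlr2 and Il1rn were still called for diet averaged over genotypes. Cd14 and Il1rn were then also called in DKO, with lower estimates of 1.47 and 1.02 than in the main fit.

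The 5 monocyte markers summed to 7.90 to 50.4 FPKM in DKO chow, 29.3 to 103 FPKM in DKO Western diet, 14.9 and 37.0 FPKM in DKO/hA1 chow and 27.5 to 122 FPKM in DKO/hA1 Western diet, and 0 of the 5 were called for diet. The 9 endothelial markers, which bear on Icam1 and Vcam1, did not pass the test in either direction. They summed to 59.3 to 175 FPKM in DKO chow, 67.9 to 143 FPKM in DKO Western diet, 55.1 and 148 FPKM in DKO/hA1 chow and 101 to 131 FPKM in DKO/hA1 Western diet, and 0 of the 9 were called for diet, with a median difference of -0.099. Their median was -0.42 in DKO, with 1 of the 9 above 0, and 0.25 in DKO/hA1, with 7 of the 9 above 0. For genotype on Western diet it was 0.34, with 8 of the 9 above 0, where Vcam1 was at 0.87; none of these markers was called, and their part in the Vcam1 values was not tested. Among T and NK cell, B cell, stellate cell and cholangiocyte markers, 0 of the 4, 2, 9 and 3 tested were called. DKO chow replicate 2 and DKO/hA1 chow replicate 2, lowest for 8 of the 10 genes between them, were also the lowest 2 libraries in summed macrophage and endothelial markers.

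**Figure D3:**
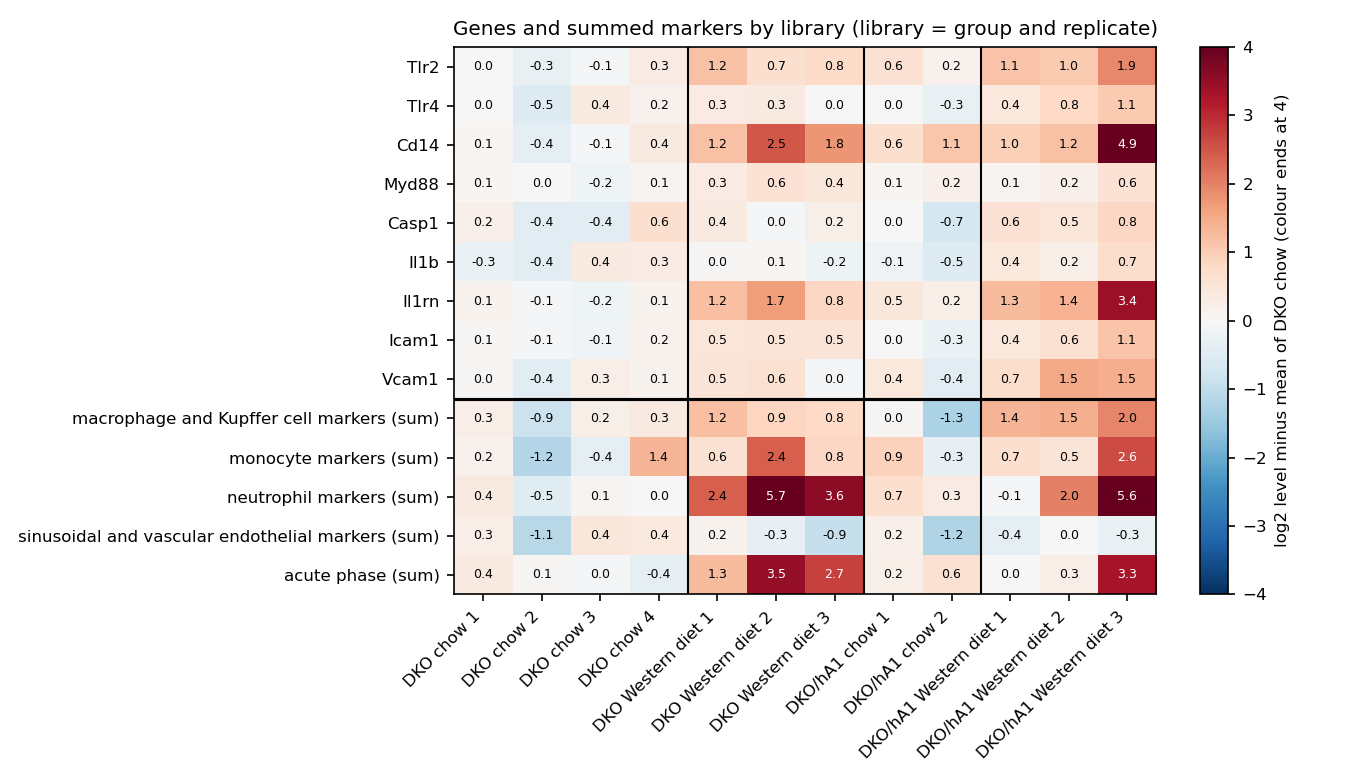
Heat map of the 9 genes tested (scaled log2 of FPKM + 1) and of 5 summed marker lists (log2 of summed FPKM + 1), each minus its mean in DKO chow, with 1 column per library and colours ending at 4. Cd14 and Il1rn are highest in DKO/hA1 Western diet replicate 3, where neutrophil, monocyte and acute phase sums are also high, and the macrophage sum is above the DKO chow mean in all 6 Western diet libraries.

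The diet calls rested on DKO/hA1 chow replicate 2, 1 of 2 libraries in its group. Without it, 0 of the 9 genes were called for diet averaged over genotypes, and 31 of all genes were called in place of 463. The estimates were then 0.62 for Icam1 (limma adjusted p = 0.0973), 0.83 for Tlr2 (adjusted p = 0.121) and 1.40 for Il1rn (adjusted p = 0.196). With DKO chow replicate 2 left out as well, a choice made after seeing the data, they were 0.61 (adjusted p = 0.130), 0.78 (adjusted p = 0.153) and 1.39 (adjusted p = 0.239), and 57 of all genes were called. Leaving out any other single library kept the calls of Icam1 and Tlr2. Il1rn was called without each of the DKO/hA1 Western diet libraries in turn and in no other case with 1 library left out.

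**Figure D4:**
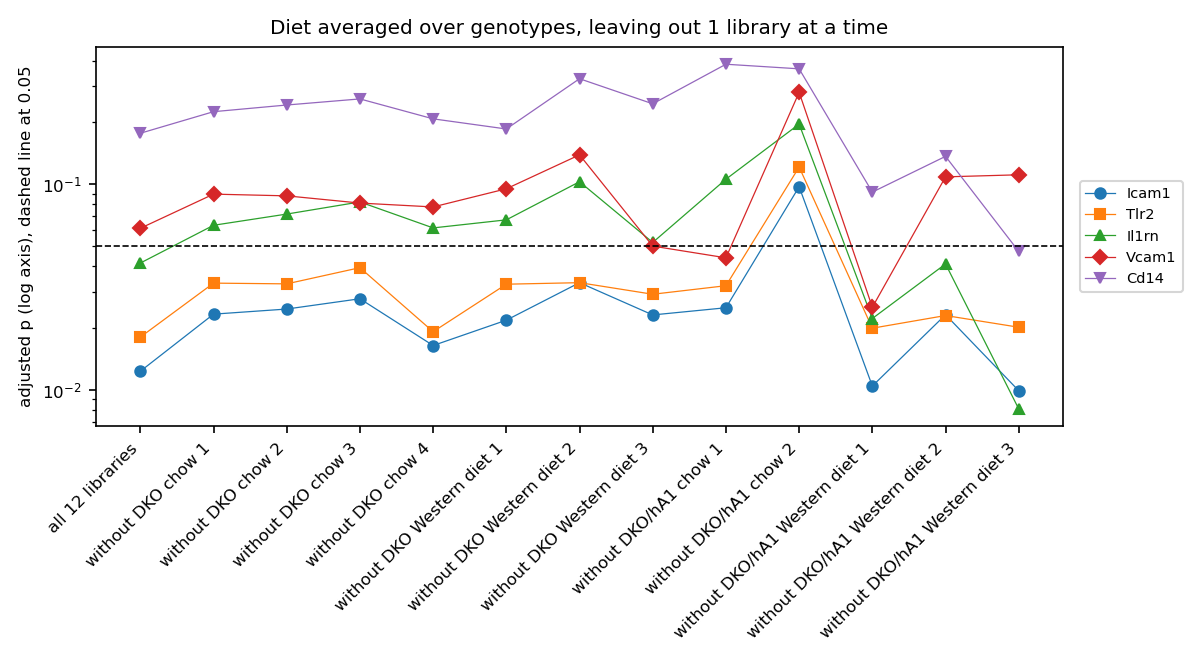
Adjusted p of the diet difference averaged over genotypes, on a log axis with a dashed line at 0.05, for 5 genes with all 12 libraries and with each library left out in turn. Icam1 and Tlr2 stay under the line except without DKO/hA1 chow replicate 2, where they reach 0.0973 and 0.121.

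The 9 genes followed one another to different degrees over the 12 libraries. The highest Pearson correlations of log2 levels were 0.95 between Tlr4 and Vcam1, 0.94 between Cd14 and Il1rn and 0.93 between Il1rn and Icam1. The lowest was 0.21, between Myd88 and Il1b. Among all genes tested the closest to Tlr2 was Slamf9 (r = 0.96), to Tlr4 Ctbp2 (0.98), to Cd14 Ccdc120 (0.98), to Casp1 H2-M3 (0.94) and to Il1b Calhm2 (0.93). Myd88 was closest to the acute phase genes Saa2 and Saa1 (0.95 each), Il1rn to Ms4a6c (0.99), Icam1 to Evi2b (0.98) and Vcam1 to Iqgap1 (0.99). Casp4 came next for Cd14 (0.96), Unc93b1 for Casp1 (0.93), and Pik3r5 and Mefv for Il1rn (0.97 each). Rank (Spearman) correlations of these genes with their named closest genes ran from 0.83 (Il1rn and Mefv) to 0.97 (Casp1 and H2-M3). DKO/hA1 Western diet replicate 3 stood far above the other libraries for Cd14 and Il1rn and weighs on their Pearson correlations. All these values describe 12 libraries that share their groups, depth and cell content, and no test was made of them.

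Other genes of the pathways were taken from 5 lists. Among Toll-like receptors and their co-receptors, 12 of 15 were tested and 5 were called higher on Western diet averaged over genotypes, with none lower. Of all genes tested 2.81% were called higher, and the median difference of the 12 was 0.65. Ly86, the partner protein of CD180, rose by 1.31 ± 0.22 (limma adjusted p = 0.00999), from a mean of 6.39 ± 2.53 FPKM (SD, n = 4) in DKO chow to 12.8 ± 2.36 (SD, n = 3) in DKO Western diet and from 5.63 ± 2.04 (SD, n = 2) to 21.0 ± 5.41 (SD, n = 3) in DKO/hA1. Cd180, a receptor homologue on B cells and myeloid cells, rose by 0.86 ± 0.16 (adjusted p = 0.0163). The endosomal receptors Tlr13 (0.86 ± 0.16, adjusted p = 0.0157) and Tlr8 (0.69 ± 0.15, adjusted p = 0.0293) rose, as did Unc93b1, which carries such receptors to endosomes (0.65 ± 0.15, adjusted p = 0.0321). Of these 5, Tlr8 was called in 6 and Unc93b1 in 5 of the 12 fits that left out 1 library, and the others in 11. No chow library held Tlr13 above 0.763 FPKM or Tlr8 above 0.612 FPKM, so both passed the level filter through Western diet libraries alone. Both were still called for diet averaged over genotypes without the filter. In DKO/hA1 alone Cd180, Ly86 and Tlr13 were called, where 1.31% of all genes tested were, and in DKO alone none. The largest of the others were Lbp, the plasma protein that binds lipopolysaccharide (0.94 ± 0.32, adjusted p = 0.140), and Tlr1 (0.64 ± 0.17, adjusted p = 0.0594). Tlr1 was at most 0.983 FPKM on chow, so it too passed the level filter through Western diet libraries alone. The count of 5 called includes Tlr13 and Tlr8, and the list median includes Tlr1 as well. Both are therefore raised by genes kept for their Western diet levels. Tlr6, Tlr9 and Tlr11 were too low to test.

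Signalling genes downstream of the receptors are known mainly as kinases, adaptors and NF-kB subunits: 28 of 29 were tested, 1 was called higher and 1 lower, and the median difference was 0.085. Over all genes tested 2.81% were called higher and 1.2% lower, so these single calls are near the background. Tnfaip3, a deubiquitinase that restrains NF-kB signalling, rose by 0.64 ± 0.12 (limma adjusted p = 0.0158). Ikbkg, the regulatory subunit of the IkB kinase, changed by -0.56 ± 0.092 (adjusted p = 0.0094), with means of 12.3 ± 1.81 FPKM (SD, n = 4) and 10.7 ± 1.46 (SD, n = 3) in DKO on chow and Western diet and 17.4 ± 1.35 (SD, n = 2) and 9.11 ± 0.64 (SD, n = 3) in DKO/hA1. Both genes were also called in DKO/hA1 alone. The largest of the others were Irak3, an inhibitory kinase of the pathway (1.09 ± 0.31, adjusted p = 0.0743), and the NF-kB inhibitor Nfkbib (0.43 ± 0.11, adjusted p = 0.0634). Irak3 was at most 0.658 FPKM on chow and passed the level filter through Western diet libraries alone.

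In the inflammasome and pyroptosis list 14 of 18 genes were tested, 1 was called higher and none lower, where 2.81% of all genes tested were called higher, and the median difference was 0.27. A single call in a list of this size says nothing about the list. The called gene was Mefv, which encodes the sensor pyrin, at 0.87 ± 0.16 (limma adjusted p = 0.0163). Mefv was at most 0.686 FPKM on chow, so it passed the level filter through Western diet libraries alone, and it was still called without the filter. The largest of the others were Casp4, the caspase that senses cytosolic lipopolysaccharide (0.64 ± 0.26, adjusted p = 0.192), and Nlrp12 (0.61 ± 0.26, adjusted p = 0.227). Nlrp1a, Nlrp1b, Nlrc4 and Naip1 were too low to test.

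In the interleukin-1 family 6 of 10 genes were tested and 2 were called higher, where 2.81% of all genes tested were. The median difference of the 6 was 0.65. Il18bp, which encodes a soluble inhibitor of interleukin-18, rose by 1.33 ± 0.21 (limma adjusted p = 0.00837) and was also called in DKO/hA1 alone (1.77 ± 0.32, adjusted p = 0.0298). Il1a, the other interleukin-1 agonist, was called at 0.70 ± 0.17 (adjusted p = 0.0425), but in only 2 of the 12 fits that left out 1 library, and neither with equal totals nor without the level filter. The largest of the others were the receptor Il1r1 (1.34 ± 0.48, adjusted p = 0.157) and the alarmin Il33 (0.59 ± 0.28, adjusted p = 0.276). Il1r2, Il1rl1, Il18r1 and Il18rap were too low to test.

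Among adhesion molecules and leukocyte integrins 17 of 21 were tested, 3 were called higher and none lower, where 2.81% of all genes tested were called higher, and the median difference was 0.39. They were Itgb2, the beta-2 integrin chain whose dimers bind ICAM-1 (1.25 ± 0.26, limma adjusted p = 0.0252), the hyaluronan receptor Cd44 (1.16 ± 0.22, adjusted p = 0.0173) and the selectin ligand Selplg (0.89 ± 0.21, adjusted p = 0.0402). With equal totals, and without DKO Western diet replicate 2, Cd44 was the 1 gene of the 3 still called, and Selplg was called in 4 of the 12 fits that left out 1 library. Among the others, the integrin chain Itgam was at 0.96 ± 0.45 (adjusted p = 0.279). The endothelial selectin Sele reached at most 0.316 FPKM and was not tested. Without DKO/hA1 chow replicate 2, none of the 5 lists had a called gene for diet averaged over genotypes.

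**Figure D5:**
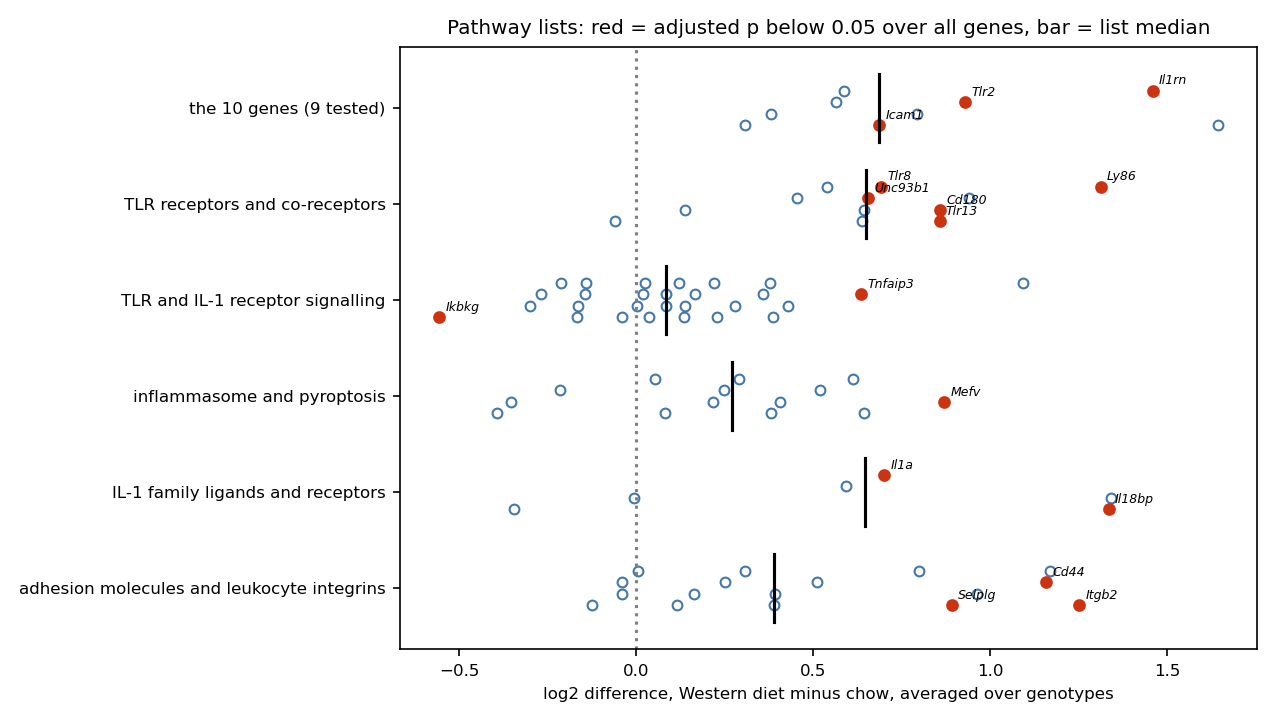
Log2 difference between Western diet and chow averaged over genotypes, 1 point per gene tested, for the 10 genes and the 5 pathway lists; red points have an adjusted p below 0.05 and bars are list medians. The receptor list (median 0.65) and the 9 genes (median 0.69) lie to the right of the signalling list (median 0.085), in which Ikbkg is the only red point below 0. Tlr13, Tlr8, Tlr1, Irak3 and Mefv are among the points and passed the level filter through Western diet libraries alone.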

How the data were processed

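RNA-seq of 12 mouse liver libraries was analysed from 1 table of FPKM values that the authors deposited. Per the submitters' processing notes, the tools were TopHat 1.3.2, Bowtie 0.12.8, SAMtools 0.1.19 and Cuffdiff, with build mm10; the annotation and strand setting are not given in the sources used here. Groups were taken from the sample labels. The members, gene lists and tests were chosen with earlier results of these data known. The table lists 23284 genes; 785 small RNA genes and 22 genes at 0 throughout a group but at 1 FPKM or more in every library of another were left out. FPKM values were scaled by trimmed means of log ratios (trims 0.3 and 0.05), and log2(FPKM + 1) was fitted in limma 3.58.1 (R 4.3.3) with 4 groups, no block and a trended, robust variance. Tests were two-sided, and p-values were adjusted by Benjamini-Hochberg over 11546 genes. All 10 genes are named; from each pathway list, the called genes and the 2 largest others are named except 1 gene that is not reported here, and for each tested gene the closest gene, or others of the closest 3, by correlation. The model was tested on simulated data. Read numbers were not used here, so values carry no counting interval. Tables were handled and drawn with Python 3.11.15, pandas 2.3.3, numpy 2.4.6 and matplotlib 3.10.9. Gene positions are from GENCODE on GRCm38. Alternatives changed the number added, the scaling, the level filter, the variance model, the block, the groups fitted and the libraries.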

Additional observations from a re-analysis of the deposited data

How the results depend on the processing

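Of 1223 values for single genes under an alternative, 1170 kept their direction and their side of the threshold. Of the rest, 27 turned direction, 11 passed the threshold newly and 15 no longer passed. Most of the 1170 were values not called in the main fit either, so this total says little about the calls. The main fit called only Icam1, Tlr2 and Il1rn, for diet averaged over genotypes, and all 15 losses were among these calls. Il1rn was called in 11 of 22 alternatives, and Tlr2 and Icam1 in 20 of 22 each. The number of the 9 genes called for diet averaged over genotypes ranged from 0 to 4 with 1 library left out, and was 0 without the 2 chow libraries lowest in macrophage markers. For diet in DKO it ranged from 0 to 2, and was 2 without the 2 libraries highest in neutrophil markers. For diet in DKO/hA1 it ranged from 0 to 2. The replicate numbers were not taken as pairs, since the labels do not say that a number is shared between groups. Deviations of same-numbered libraries correlated at -0.284 to 0.447, which does not settle whether they were paired. With the replicate block, 1 gene was called for diet in DKO/hA1 (Icam1, 0.86, limma adjusted p = 0.0483), and 478 of all genes were called for diet averaged over genotypes.

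Over all genes, the 151 calls for diet in DKO/hA1 became 13 with only the compared groups fitted, 69 with equal totals (39 higher and 30 lower, against 116 and 35), 107 without a level filter, and 6 without DKO/hA1 chow replicate 2. The 13 for diet in DKO became 71 without DKO/hA1 Western diet replicate 3, a library outside DKO that enters through the shared spread.

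None of the values that turned direction was called. For diet in DKO, Il1b was 0.017 without scaling and -0.17 to 0.095 with 1 library left out. For genotype on chow, Tlr4 ran from -0.32 to 0.0047 with 1 library left out. Vcam1 ran from -0.42 to 0.41, and was 0.018 without scaling, 0.061 with equal totals, 0.0025 with only the compared groups and 0.27 without the 2 chow libraries lowest in macrophage markers. For genotype on Western diet, Cd14 ran from -0.75 to 1.23 and Icam1 from -0.0068 to 0.36 with 1 library left out; without the 2 libraries highest in neutrophil markers they were -0.41 and -0.0054, and Myd88 was 0.039 with equal totals. In the interaction, the ranges with 1 library left out were -0.15 to 0.34 for Tlr2, -1.62 to 0.36 for Cd14 and -0.25 to 0.83 for Il1rn. Without the 2 libraries highest in neutrophil markers Tlr2 was -0.25 and Il1rn -0.041, and without the 2 chow libraries lowest in macrophage markers Cd14 was 0.018. The cause was not tested. Where 1 DKO/hA1 chow library was left, it was assumed to vary like the other groups.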
